A study of Mus musculus with 45 samples.

Results

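The 6 libraries described here come from bone-marrow-derived macrophages of C57BL/6 mice, 3 taken after 2 h of interleukin-4 (IL-4, 10 ng/ml) and 3 left untreated, out of 45 samples in the series. Both groups were taken on the seventh day of differentiation in medium conditioned by L929 cells, a fibroblast line that secretes the macrophage growth factor CSF1, and neither carried a hairpin. Poly(A) RNA was sequenced. The 3 libraries of a group carry the numbers 1, 2 and 3 and were compared in pairs by that number. A gene entered the comparison with at least 1 CPM (reads of the gene scaled to a common library total) in at least 3 of the 21 libraries of the deposited table, and 11380 of 24421 genes did. The other 15 libraries of that table were given IL-4 for 4 h, IFN-γ (100 ng/ml) for 2 h or 4 h, or both cytokines. The labels name no vehicle and no time for the untreated cells, and they do not say whether the numbered replicates came from separate animals or cultures. The spread behind each p-value was estimated over all 21 libraries of that table, after allowing for the replicate number. It is therefore that of these libraries alone and may be technical.

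IL-4 binds a receptor made of the IL-4 receptor alpha chain (Il4ra) and the common gamma chain (Il2rg), or of Il4ra and Il13ra1. These receptors activate kinases of the JAK family, among them JAK1 and JAK3, which phosphorylate the transcription factor STAT6. In mouse macrophages this pathway is known for alternative activation, a state marked by Arg1, Retnla, Chil3 and Mrc1. Proteins of the SOCS family, some of whose genes are STAT targets, bind the receptors or the JAKs and damp the signal.

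After 2 h of IL-4, 1590 genes were higher than in untreated cells (14% of those tested) and 1313 were lower (11.5%), so that 25.5% of the genes passed the test. A gene was called at a Benjamini-Hochberg adjusted p under 0.05 from limma, on log2(CPM + 1) after median-ratio rescaling of the libraries, with a block for the replicate number. Most changes were small, the median being 0.47 on the log2 scale among genes called higher and -0.47 among genes called lower. At a log2 change of at least 1, 288 genes were higher (2.53%) and 154 were lower (1.35%). At a log2 change of at least 2 the counts were 64 and 23, and at 3 they were 24 and 8. Of the genes called higher, 1588 were higher in all 3 pairs, and of those called lower, 1306 were lower in all 3 pairs. All 3 IL-4 libraries lay above all 3 untreated libraries for 1392 genes (12.2%), and below them for 1040 (9.14%). Without the replicate block the counts were 627 higher and 354 lower, and in the CPM as deposited they were 4124 and 214.

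**Figure D1:**
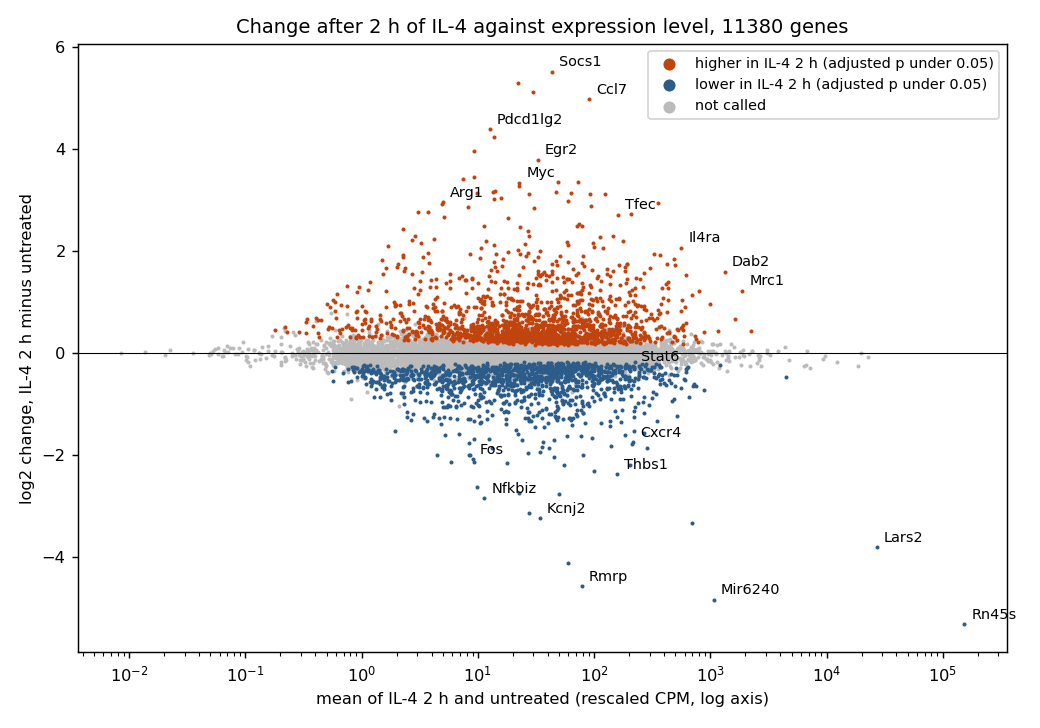
Log2 change (IL-4 2 h minus untreated) against the mean of both groups in rescaled CPM on a log axis, 1 point per gene for 11380 genes. Red points are the 1590 genes called higher, blue points the 1313 called lower and grey points the rest; Socs1 stands highest at 5.51, and the lowest points are Rn45s, Mir6240 and Rmrp, which untreated libraries 2 and 3 set.

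Libraries held 38347208 to 40155048 assigned reads in the IL-4 group and 28920801 to 80028327 in the untreated group. The ribosomal RNA precursor Rn45s accounted for 0.0662%, 0.360% and 0.167% of reads in IL-4 libraries 1, 2 and 3, against 0.151%, 43.2% and 15.7% in untreated libraries 1, 2 and 3. A larger share of one RNA lowers the CPM of every other gene, and over all genes the median log2 change stood at 0.39 in the deposited values, against -0.0022 after rescaling. All values below are rescaled CPM, listed in the order of replicates 1, 2 and 3. The ± beside a log2 change gives its standard error, and the ± beside a mean CPM the standard deviation of 3 libraries. The log2(CPM + 1) scale understates the change of genes near or below 1 CPM, and in RNA of whole cultures fewer cells of a type and less RNA per cell cannot be told apart. Whether the authors' counting used strand is not given in the sources used here. Reads of Rab15, Lpar6, Stat3, Stat6, Irf5, Irf7, Ncor1, Tsr1, Runx2, Dusp1, Arg2, Cx3cr1, Dnmt3a, Atp6v1b2, Tnfsf9 and P2ry14 may therefore be mixed with those of genes whose spans overlap them on the other strand. The spans include introns, and whether exons overlap was not tested. Npm1, Hspa8 and Aldoa have processed pseudogenes that could share their reads.

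Among the components of the receptor itself, the chain that binds the cytokine changed most. Il4ra had 905, 800.1 and 999.6 CPM in IL-4 2 h libraries, against 228, 188 and 231 CPM in untreated libraries (2.06 ± 0.18, adjusted p = 1.2e-07; chromosome 7, 125552120 to 125579474, plus strand, GRCm38). Every IL-4 library stood far above every untreated one. The partner chain Il2rg had 102, 82.7 and 68.9 CPM with IL-4, against 102, 84.5 and 77.8 CPM in untreated libraries, and the groups overlapped (-0.069 ± 0.11, adjusted p = 0.71). Il13ra1, the alternative partner, had 20.5, 16.6 and 18.2 CPM after IL-4 and 35.9, 21.1 and 24.8 CPM in untreated cells. It was lower in all 3 pairs (-0.51 ± 0.12, adjusted p = 0.0046), but its call was lost without the block (adjusted p = 0.11) and in the deposited values (adjusted p = 0.69). The call was also lost without replicate number 1 (adjusted p = 0.052) and without number 3 (0.079). The kinases Jak1 (0.023 ± 0.06, adjusted p = 0.84) and Jak3 (0.037 ± 0.12, adjusted p = 0.86) were not called, while Jak2, another kinase of the family, rose by 1.20 ± 0.09 with no overlap between groups. Stat6 had 198, 192 and 213 CPM in IL-4 2 h libraries, against 248, 233 and 244 CPM in untreated libraries. Its decrease was small (-0.27 ± 0.07, adjusted p = 0.013), was not called without the block (adjusted p = 0.27), and in the deposited values its sign was positive. Nor was Stat6 called without replicate number 1 (adjusted p = 0.115) or 3 (0.14), without untreated library 2 (0.078) or without IL-4 library 1 (0.093). With untreated library 1 as the lone control the log2 change of Stat6 was -0.22. Stat3, a relative of Stat6, was not called (0.10 ± 0.11). Ptpn1 (0.68 ± 0.09) and Ptpn2 (0.73 ± 0.10), phosphatases that remove phosphate from JAK and STAT proteins, were both called higher, Ptpn1 not without the block (adjusted p = 0.12). Of 21 tested members of the receptor and JAK-STAT list, 4 were higher and 5 lower (14% and 11.5% of all genes), and the median log2 change was -0.043. The counts of higher and lower members, in that order here and below, were 3 and 0 without the block and 9 and 0 in the CPM as deposited. For every list below, the shares over all genes to set beside its counts are likewise 14% higher and 11.5% lower.

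Feedback inhibitors of cytokine receptors held 3 of the 6 largest increases. Socs1, which blocks JAK kinases directly, had 119.7, 74.9 and 64.6 CPM with IL-4, against 1.30, 0.836 and 0.508 CPM in untreated libraries. It showed the largest increase of all genes named here (5.51 ± 0.19, adjusted p = 3.7e-12; chromosome 16, 10782240 to 10785536, minus strand), and the lowest IL-4 library was far above the highest untreated one. Cish, the founding member of the family, had 65.9, 47.3 and 62.96 CPM after IL-4 and 0.839, 0.418 and 0.897 CPM in untreated cells (5.12 ± 0.20, adjusted p = 1.6e-11; chromosome 9, 107296026 to 107302784, plus strand). Socs2, an inhibitor of growth hormone signalling, had 32.3, 21.2 and 27.01 CPM in IL-4 2 h libraries, against 0.649, 0.298 and 0.482 CPM in untreated libraries (4.22 ± 0.13, adjusted p = 2.2e-12). These 3 genes were near or below 1 CPM in every untreated library and at more than 20 CPM in every IL-4 library. Socs5, which inhibits IL-4 signalling in mouse T cells, rose less, to 69.7 ± 6.64 CPM with IL-4 against 30.3, 31.6 and 31.6 CPM in untreated libraries (1.13 ± 0.10). Socs7 (-0.081 ± 0.08) and Socs4 (0.0010 ± 0.10) were not called. In all, 4 of 8 family members were higher and 1 was lower (Socs6, -0.63 ± 0.13, chosen after its value was seen, a call that was lost without the block, as deposited and without replicate number 3), and the median log2 change of the family was 0.57.

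Rasgrp1 and Dusp4, regulators of Ras and MAP kinases, were also among the 15 largest increases. Rasgrp1, an exchange factor that activates Ras and is best known from lymphocytes, had 40.03, 40.4 and 52.99 CPM with IL-4, against 0.216, 0.119 and 0.120 CPM in untreated libraries (5.29 ± 0.29, adjusted p = 4.6e-10; chromosome 2, 117279993 to 117343001, minus strand). Untreated libraries held 8, 2 and 9 reads of it. Dusp4, a nuclear phosphatase of ERK and JNK, had 104, 102 and 64.5 CPM after IL-4 and 10.96, 7.999 and 5.39 CPM in untreated cells (3.34 ± 0.13, adjusted p = 1.6e-11). Dusp1, the phosphatase of p38 and JNK that belongs to the immediate-early genes, went the other way, with 1.80, 0.874 and 0.846 CPM in IL-4 2 h libraries, against 10.9, 7.04 and 5.47 CPM in untreated libraries (-2.0002 ± 0.19, adjusted p = 5.8e-07). Dusp7 rose by 1.07 ± 0.20, a call that was lost with untreated library 1 as the lone control (adjusted p = 0.098). Rasa3 (0.13 ± 0.09), a Ras GTPase-activating protein, and Rasgrp3 (0.13 ± 0.11), a relative of Rasgrp1, were not called. Over the list of MAP kinase phosphatases and Ras regulators, 3 of 19 were higher and 5 lower (3 and 3 without the block and 5 and 4 as deposited), with a median of -0.087. The shares over all genes were 14% and 11.5%.

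Because Cish and some SOCS genes are known STAT targets, the promoters of the 4 genes with the largest increases that had a RefSeq entry are shown. Each runs from 250 bases before to 50 bases after the start of the entry, read on the strand of the gene (GRCm38.p6). For Cish and Rasgrp1 that start lies inside the gene span given above. Ccl7, the fourth of the 5 largest increases, had no entry. STAT dimers bind palindromes of the form TTCNNNGAA, and STAT6 also binds the form with 1 more N between TTC and GAA. Matches to either on these strands stand in capitals, and since each form is its own reverse complement, a match on one strand is also a match on the other. The windows are chr16:10785487-10785786 for Socs1, chr2:117342828-117343127 for Rasgrp1, chr9:107296409-107296708 for Cish and chr19:29410669-29410968 for Pdcd1lg2.
Socs1: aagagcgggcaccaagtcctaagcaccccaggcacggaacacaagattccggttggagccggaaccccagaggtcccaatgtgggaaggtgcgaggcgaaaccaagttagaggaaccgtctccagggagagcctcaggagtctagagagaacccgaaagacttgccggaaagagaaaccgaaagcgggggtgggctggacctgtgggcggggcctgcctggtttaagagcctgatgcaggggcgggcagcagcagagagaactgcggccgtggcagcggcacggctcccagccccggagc
Rasgrp1: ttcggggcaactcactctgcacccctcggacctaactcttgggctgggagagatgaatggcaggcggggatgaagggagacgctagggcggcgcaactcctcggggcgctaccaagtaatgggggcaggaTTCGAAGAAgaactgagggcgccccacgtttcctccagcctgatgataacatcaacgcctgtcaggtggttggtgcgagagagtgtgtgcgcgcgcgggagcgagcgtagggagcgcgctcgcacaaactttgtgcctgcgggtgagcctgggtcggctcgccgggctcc
Cish: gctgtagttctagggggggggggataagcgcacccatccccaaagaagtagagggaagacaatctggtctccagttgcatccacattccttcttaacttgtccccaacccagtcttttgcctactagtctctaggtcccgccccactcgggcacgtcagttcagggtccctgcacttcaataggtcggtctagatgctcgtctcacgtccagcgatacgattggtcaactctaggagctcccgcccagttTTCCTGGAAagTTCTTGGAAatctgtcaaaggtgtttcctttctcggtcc
Pdcd1lg2: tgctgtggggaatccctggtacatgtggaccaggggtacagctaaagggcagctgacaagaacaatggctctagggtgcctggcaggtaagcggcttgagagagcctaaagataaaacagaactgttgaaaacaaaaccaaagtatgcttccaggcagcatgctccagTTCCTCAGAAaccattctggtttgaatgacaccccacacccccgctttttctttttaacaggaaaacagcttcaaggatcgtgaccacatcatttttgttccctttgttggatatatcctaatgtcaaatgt

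Cish held 2 matches of the shorter form, not overlapping and near the start of its entry. Rasgrp1 held 1 of the shorter form, Pdcd1lg2 held 1 of the longer form, and Socs1 held none in its window. Of 32851 promoter windows of this length in the table, 14.6% held either form (8.30% the shorter and 6.95% the longer). Among the 15 largest increases, 9 genes had an entry, and 5 of them held a match in at least 1 window (Rasgrp1, Cish, Tmem26, Rab15 and Pdcd1lg2). Of the genes called higher by log2 1 or more with an entry, 39 of 216 held one (18.1%), of those called lower by as much 13 of 118 (11.02%), and of all tested genes 1255 of 8783 (14.3%). Some genes have several windows, and a match is a description of the letters, not of a bound site.

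**Figure D2:**
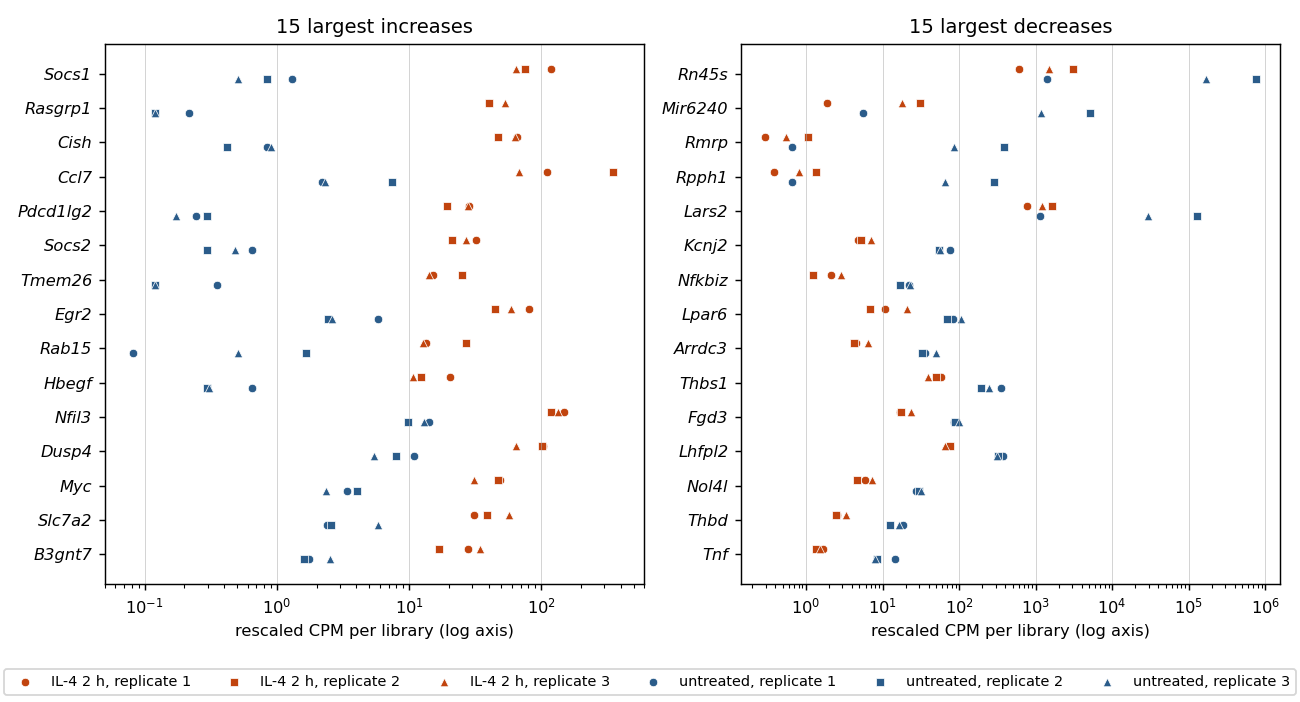
Rescaled CPM (log axis) in each library for the 15 largest increases (left) and the 15 largest decreases (right), IL-4 2 h in red and untreated in blue, with a marker shape per replicate number. The groups do not overlap in any of the 15 increases or in the lower 10 decreases, whereas in Rn45s, Mir6240, Rmrp, Rpph1 and Lars2 untreated library 1 lies among the IL-4 libraries and untreated libraries 2 and 3 far above them. The genes were picked for large changes in these same libraries, so this is a description. Over all genes, the IL-4 libraries lay wholly above the untreated ones in 12.2% and wholly below in 9.14%.

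Genes of alternative activation, many of them known from macrophages given IL-4, were called in 1 direction only. Of 32 tested members, 23 were higher and 0 lower (median log2 change 1.53), and the counts were 19 and 0 without the block and 29 and 0 as deposited. No member was lower by edgeR, by DESeq2 or at an unadjusted limma p under 0.05. Members such as Pdcd1lg2, Tmem26, Socs2, Arg1 and Cdh1 were below 1 CPM in every untreated library. They entered the comparison through treated libraries and could hardly be called lower. The list was also chosen with earlier results of these data known, so the counts are a description. Pdcd1lg2, which encodes PD-L2, a ligand of the inhibitory receptor PD-1, had 28.3, 19.4 and 27.8 CPM with IL-4, against 0.243, 0.298 and 0.174 CPM in untreated libraries (4.38 ± 0.21, adjusted p = 1.4e-10; chromosome 19, 29410919 to 29471161, plus strand). Ccl24, an eosinophil chemoattractant, had 34.7, 14.5 and 25.4 CPM after IL-4 and 3.38, 0.895 and 1.47 CPM in untreated cells (3.16 ± 0.19). Slc7a2, an arginine carrier, had 30.8, 38.6 and 56.7 CPM in IL-4 2 h libraries, against 2.38, 2.57 and 5.81 CPM in untreated libraries (3.26 ± 0.14, adjusted p = 6.3e-11). In all 3 genes the groups were clearly apart. Tmem26, a membrane protein, rose by 3.96 ± 0.13, and the macrophage and osteoclast factor Tfec by 2.71 ± 0.16. Cdh1, E-cadherin, had 4.26, 7.14 and 6.98 CPM with IL-4, against 0.0541, 0 and 0.0401 CPM in untreated libraries (2.76 ± 0.15).

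The effector genes by which the state is usually recognised differed widely in level. Arg1, which degrades arginine to ornithine and urea, had 6.92, 17.1 and 5.17 CPM after IL-4 and 0.0271, 0.537 and 0.201 CPM in untreated cells (2.95 ± 0.40, adjusted p = 2.6e-05; chromosome 10, 24915221 to 24927484, minus strand). Library 2 was highest in both groups. Retnla, the gene of the secreted RELMα, had no read in any untreated library and 70, 67 and 62 reads in the IL-4 libraries, or 1.59, 1.43 and 1.46 CPM (adjusted p = 1.4e-08; chromosome 16, 48842551 to 48844461, plus strand). Against a floor of 3 reads over the untreated group, that is at least 63.9-fold higher. Chil3, a chitinase-like protein, had 57.01, 73.1 and 29.1 CPM in IL-4 2 h libraries, against 40.6, 53.2 and 25.3 CPM in untreated libraries. It was higher in each pair, but the groups overlapped and it was not called (0.37 ± 0.16, adjusted p = 0.093). Mrc1, the mannose receptor, was already abundant and had 2807, 2203 and 2888 CPM with IL-4, against 1107, 1089.7 and 1176 CPM in untreated libraries (1.22 ± 0.12, adjusted p = 1.1e-06). The scavenger receptor Cd36 (0.37 ± 0.14) and Vwf (-0.056 ± 0.10), an adhesive plasma protein, were not called.

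Several transcription factors of the IL-4 response were among the large increases. Egr2, a zinc-finger factor of the early growth response family, had 81.3, 44.5 and 58.96 CPM after IL-4 and 5.82, 2.45 and 2.64 CPM in untreated cells (3.79 ± 0.46, adjusted p = 8.5e-06; chromosome 10, 67535475 to 67542188, plus strand). Irf4, an interferon regulatory factor needed for much of the alternative programme in mouse macrophages, had 47.1, 49.4 and 54.7 CPM in IL-4 2 h libraries, against 5.52, 3.9996 and 5.35 CPM in untreated libraries (3.12 ± 0.17, adjusted p = 5.5e-10; chromosome 13, 30749226 to 30766976, plus strand). Myc had 48.7, 47.3 and 30.8 CPM with IL-4, against 3.38, 4.06 and 2.37 CPM in untreated libraries (3.33 ± 0.13, adjusted p = 1.2e-11; chromosome 15, 61985391 to 61990374, plus strand). Each of these factors was higher in every IL-4 library than in any untreated one. Klf4, which cooperates with STAT6 in mouse macrophages, had 45.2, 68.6 and 49.04 CPM after IL-4 and 4.92, 8.24 and 7.01 CPM in untreated cells (2.84 ± 0.22). Nfil3, a bZIP repressor, had 148, 119 and 133 CPM in IL-4 2 h libraries, against 14.2, 9.79 and 12.95 CPM in untreated libraries (3.34 ± 0.21), and Batf3, a bZIP partner of IRF4 and JUN proteins, rose by 2.85 ± 0.16. Ahr, the aryl hydrocarbon receptor, had 118, 51.1 and 88.1 CPM with IL-4, against 9.14, 6.51 and 9.49 CPM in untreated libraries (3.15 ± 0.13, adjusted p = 3.4e-11). The groups did not overlap in any of these 4 either. Pparg, the lipid-sensing nuclear receptor, changed less, with 74.05, 71.001 and 53.5 CPM after IL-4 and 48.2, 41.5 and 30.4 CPM in untreated cells (0.72 ± 0.08, adjusted p = 1.5e-06). Kdm6b, a histone H3K27 demethylase, had 13.6, 7.10 and 10.6 CPM in IL-4 2 h libraries, against 7.12, 3.76 and 5.59 CPM in untreated libraries, overlapping groups and an adjusted p of 0.041 (0.81 ± 0.28), which was 0.56 without the block. The Kdm6b call was also lost without replicate number 1 (adjusted p = 0.117) or 3 (0.257), without untreated library 1 or 3, and without any single IL-4 library.

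Other factors fell. Fos, the AP-1 subunit of the immediate-early genes, had 3.75, 1.92 and 2.14 CPM with IL-4, against 25.8, 9.19 and 11.2 CPM in untreated libraries (-2.09 ± 0.17, adjusted p = 8.5e-08). Bcl6, a repressor of inflammatory genes, had 33.3, 31.1 and 43.8 CPM after IL-4 and 60.2, 74.6 and 59.1 CPM in untreated cells (-0.83 ± 0.16, adjusted p = 7.3e-04, and 0.060 in the deposited values). The AP-1, BATF and C/EBP list had 5 members higher and 4 lower of 19 (4 and 1 without the block and 7 and 2 as deposited). Atf4 (0.0031 ± 0.12) and Cebpa (-0.12 ± 0.22) were not called. Of 23 EGR, KLF and immediate-early genes, 4 were higher and 12 lower (median -0.48), and the counts were 3 and 6 without the block and 7 and 8 as deposited. The increases were Egr2, Klf4, Ier3 (2.48 ± 0.25) and, chosen after its value was seen, Zfp36l1 (0.73 ± 0.16). Sgk1, a kinase gene of that list, had 23.3, 17.2 and 22.03 CPM in IL-4 2 h libraries, against 83.4, 57.8 and 68.6 CPM in untreated libraries (-1.70 ± 0.30, adjusted p = 4.2e-04), a call that missed the threshold without the block (adjusted p = 0.053) and with untreated library 1 as the lone control (adjusted p = 0.055). Klf13 (0.12 ± 0.11) and Zfp36 (0.10 ± 0.22) were not called.

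Among the interferon regulatory factors, 5 of 10 were higher and 1 lower, but apart from Irf4 the changes were small and depended on the block, and the counts were 1 and 0 without the block and 7 and 0 as deposited. Irf1 rose by 0.83 ± 0.11 (adjusted p = 0.082 without the block) and Irf2 by 0.62 ± 0.11 (0.052). Irf7 (0.50 ± 0.17) overlapped between groups and had an adjusted p of 0.69 without the block, 0.264 without replicate number 1 and 0.123 without number 3. Irf5 (-0.17 ± 0.07) and Irf9 (0.032 ± 0.08) were not called. Of 28 lineage factors, 9 were higher and 12 lower (6 and 4 without the block and 11 and 4 as deposited). Besides Ahr and Tfec, the retinoic acid receptor Rara (1.61 ± 0.12) and the osteogenic factor Runx2 (1.46 ± 0.17) rose. The myeloid master factor Spi1 (-0.029 ± 0.08) and Hhex (0.0075 ± 0.11) were not called.

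Genes for ribosome production, which MYC is known to activate, rose by small amounts. Of 37 tested ribosome biogenesis and polyamine genes, 28 were higher and 0 lower (1 lower at an unadjusted p under 0.05, and 0 by edgeR or DESeq2), and the median log2 change was 0.43 against -0.0022 over all genes; the counts were 14 and 0 without the block and 32 and 0 as deposited, and 19 and 0 with untreated library 1 as the lone control. Rrs1, a factor of large-subunit assembly, had 34.1, 30.3 and 22.8 CPM with IL-4, against 15.3, 10.4 and 9.45 CPM in untreated libraries (1.25 ± 0.10, adjusted p = 5.9e-08). Ppan, another assembly factor, had 20.7, 27.6 and 17.8 CPM after IL-4 and 9.04, 9.67 and 8.83 CPM in untreated cells (1.16 ± 0.12). Tsr1, which acts in the maturation of the small subunit, rose by 1.04 ± 0.13, and Srm, spermidine synthase, by 0.95 ± 0.14. In Rrs1 and Ppan no untreated library reached an IL-4 library. Npm1 (0.027 ± 0.08) and the RNA polymerase I factor Ubtf (-0.080 ± 0.09), both more abundant, were not called. In the MYC network itself, 3 of 10 genes were higher and 3 lower, against 1 and 1 without the block and 4 and 1 as deposited. Beside Myc these were Max (0.26 ± 0.09), the partner of MYC, and Mlxip (0.38 ± 0.12), both chosen after their values were seen. The 3 that fell, Mnt, Mxd1 and Mxi1, encode partners of MAX that repress MYC sites. Mnt had 34.3, 21.6 and 27.6 CPM in IL-4 2 h libraries, against 81.3, 43.4 and 67.98 CPM in untreated libraries (-1.15 ± 0.17, adjusted p = 6.3e-05). The calls of Mxd1 (-0.73 ± 0.17; adjusted p = 0.13) and Mxi1 (-0.41 ± 0.13; adjusted p = 0.33) were lost without the block. Mga (-0.019 ± 0.11) and Mxd4 (-0.25 ± 0.12) were not called.

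Chemokine genes went both ways. Ccl7, a monocyte chemoattractant, had 111, 348 and 68.4 CPM with IL-4, against 2.19, 7.46 and 2.30 CPM in untreated libraries (4.96 ± 0.25, adjusted p = 1.8e-10; chromosome 11, 82045712 to 82047525, plus strand). Library 2 was the highest in both groups, and the lowest IL-4 library was above the highest untreated one. Its neighbour Ccl2 had 67.04, 238 and 42.4 CPM after IL-4 and 6.47, 19.4 and 6.04 CPM in untreated cells (3.12 ± 0.37, adjusted p = 5.7e-06), with library 2 again highest in each group, and Ccl12 rose by 2.05 ± 0.36 (adjusted p = 0.084 without the block). These were the 3 increases among 28 cytokines and chemokines, against 8 decreases (2 and 6 without the block and 3 and 8 as deposited). Tnf, the inflammatory cytokine, had 1.66, 1.34 and 1.53 CPM in IL-4 2 h libraries, against 14.6, 8.48 and 7.95 CPM in untreated libraries (-2.13 ± 0.31, adjusted p = 4.9e-05; chromosome 17, 35199381 to 35202007, minus strand). Ccl3 (-2.04 ± 0.32) and Ccl4 (-1.95 ± 0.38), inflammatory chemokines that were chosen after their values were seen, were also lower. Ccl9 (-0.17 ± 0.11) and Tgfb1 (0.020 ± 0.10), both abundant, were not called.

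Of 20 tested receptors for chemoattractants, 11 were lower and 2 higher, with a median of -0.31, and the counts of higher and lower were 1 and 4 without the block and 5 and 8 as deposited. Ptafr, the receptor of platelet-activating factor, had 91.5, 32.8 and 68.5 CPM with IL-4, against 287, 169.7 and 193 CPM in untreated libraries (-1.82 ± 0.14, adjusted p = 3.9e-08). Cxcr4 had 145, 34.6 and 137 CPM after IL-4 and 415, 164 and 395 CPM in untreated cells (-1.75 ± 0.20, adjusted p = 3.1e-06, and 0.12 without the block), with library 2 lowest in both groups. Cx3cr1, the fractalkine receptor, fell by 1.59 ± 0.31. In these 3 genes all IL-4 libraries lay below all untreated ones. Cmklr1 (0.15 ± 0.19) and P2ry14 (0.24 ± 0.13) were not called.

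Of 30 tested pattern-recognition receptors, 16 were lower and 5 higher (median -0.34), but in the deposited values the balance turned to 6 higher and 3 lower, and without the block the counts were 2 higher and 5 lower. Tlr13, the mouse sensor of bacterial ribosomal RNA, had 177, 261 and 163 CPM in IL-4 2 h libraries, against 491, 567 and 442 CPM in untreated libraries (-1.34 ± 0.14, adjusted p = 1.0e-06). Tlr2, the receptor of bacterial lipoproteins, had 93.7, 35.3 and 76.997 CPM with IL-4, against 330.3, 72.9 and 212 CPM in untreated libraries (-1.43 ± 0.21, adjusted p = 7.7e-05, and 0.30 without the block), and its groups overlapped, with library 2 low in both. Nod2, a peptidoglycan sensor, fell by 1.03 ± 0.28 (adjusted p = 0.012, and 0.17 with untreated library 1 as the lone control). The largest increase was in Clec7a, which encodes the β-glucan receptor Dectin-1 and had 583, 303 and 469.7 CPM after IL-4 and 241, 82.2 and 128 CPM in untreated cells (1.67 ± 0.21, adjusted p = 1.1e-05). Ddx58 (-0.20 ± 0.12) and Clec4n (-0.29 ± 0.19) were not called.

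NF-κB genes went both ways, 4 of 18 higher and 6 lower (2 and 1 without the block and 7 and 1 as deposited). Nfkbiz, an atypical inhibitor protein that is needed for a set of secondary response genes, had 2.12, 1.24 and 2.84 CPM in IL-4 2 h libraries, against 22.2, 17.01 and 23.03 CPM in untreated libraries (-2.85 ± 0.26, adjusted p = 2.6e-07; chromosome 16, 55811375 to 55838899, minus strand). Rel, the subunit c-Rel, had 64.4, 58.8 and 48.3 CPM with IL-4, against 22.3, 17.8 and 17.7 CPM in untreated libraries (1.52 ± 0.15, adjusted p = 5.5e-07), and Tnip3, an inhibitor of NF-κB activation, rose by 1.45 ± 0.25. Tnfaip3, which encodes an inhibitory ubiquitin-editing enzyme, had 48.7, 25.4 and 32.3 CPM after IL-4 and 37.1, 8.42 and 17.97 CPM in untreated cells. Its groups overlapped, and the adjusted p of 0.0022 (0.89 ± 0.19) was 0.53 without the block. Rela (-0.081 ± 0.12) and Ikbkb (-0.039 ± 0.07) were not called. Of 34 type I interferon-stimulated genes, 5 were lower and 1 higher, and the counts of higher and lower were 0 and 1 without the block and 7 and 1 as deposited. Over all genes, 11.5% were lower and 14% higher. Leaving out samples moved the number of lower members to 14 without replicate number 2, to 3 without number 1, to 1 without number 3, and to 2 without IL-4 library 3 or untreated library 3. Rsad2, an antiviral enzyme, had 58.3, 81.04 and 18.5 CPM in IL-4 2 h libraries, against 115, 140.0 and 66.6 CPM in untreated libraries (-1.18 ± 0.25, adjusted p = 0.0018, and 0.48 without the block). Oasl1 (-0.73 ± 0.25; adjusted p = 0.85), Cmpk2 (-0.69 ± 0.22; 0.75) and Ifit3 (-0.83 ± 0.24; 0.75), other antiviral genes, were also called lower with the block but not without it (the adjusted p without it stands after each), and all 4 overlapped between groups. Parp14 (0.17 ± 0.20) and Samhd1 (-0.13 ± 0.18) were not called.

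Among genes of antigen presentation and costimulation, 4 of 15 were higher and 2 lower (3 and 1 without the block and 6 and 2 as deposited), beside 14% and 11.5% of all genes. Cd274, which encodes PD-L1, had 169, 183 and 125 CPM with IL-4, against 58.7, 26.6 and 30.8 CPM in untreated libraries (2.08 ± 0.22, adjusted p = 1.3e-06), and Cd40 had 53.4, 36.4 and 52.99 CPM after IL-4 and 18.02, 11.2 and 10.2 CPM in untreated cells (1.80 ± 0.19, adjusted p = 1.4e-06). Both were higher in every IL-4 library. The class II genes Cd74 (0.20 ± 0.12) and H2-Aa (-0.011 ± 0.12) were not called and followed the replicate number instead, with 327, 70.1 and 156 CPM of Cd74 with IL-4 and 293, 57.5 and 140.0 CPM without. Tnfsf9, the ligand of 4-1BB, fell by 1.26 ± 0.30 (adjusted p = 0.085 with untreated library 1 as the lone control).

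In lipid handling the oxysterol enzyme Ch25h rose and the cholesterol exporter Abca1 fell. Ch25h, cholesterol 25-hydroxylase, had 16.8, 45.1 and 14.2 CPM in IL-4 2 h libraries, against 1.06, 3.34 and 1.70 CPM in untreated libraries (3.005 ± 0.29, adjusted p = 5.0e-07). Abca1 had 138, 103 and 94.7 CPM with IL-4, against 435, 248 and 309.9 CPM in untreated libraries (-1.54 ± 0.19, adjusted p = 8.0e-06). In both genes the groups were apart, with Ch25h highest in library 2 of each group. Mylip, a ubiquitin ligase, fell by 1.31 ± 0.17, and Apoc2, the cofactor of lipoprotein lipase, by 0.82 ± 0.17. Abca1 and Mylip are both known targets of the oxysterol-sensing LXR receptors. The list had 2 higher and 8 lower of 20 (1 and 3 without the block and 5 and 3 as deposited). Apoe (-0.13 ± 0.19) and Lpl (-0.22 ± 0.09) were not called. None of 19 cholesterol synthesis genes was called by limma or edgeR, 1 was lower by DESeq2 and 1 at an unadjusted limma p under 0.05, and the median was 0.0041, whereas 7 were called higher in the deposited values. Srebf2, a master factor of the pathway, was among the most abundant (0.0078 ± 0.07).

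Of 22 glycolytic genes, 2 were higher and 5 lower (1 and 1 without the block and 4 and 1 as deposited). The glucose carrier Slc2a1 had 67.9, 70.8 and 71.9 CPM after IL-4 and 32.9, 33.7 and 31.2 CPM in untreated cells (1.08 ± 0.14, adjusted p = 1.2e-05), and Pfkfb3, which makes the activator of phosphofructokinase, had 16.8, 13.6 and 16.2 CPM in IL-4 2 h libraries, against 68.8, 28.7 and 43.5 CPM in untreated libraries (-1.46 ± 0.19, adjusted p = 2.2e-05). Both genes were apart between the groups. Hexokinase Hk2 fell by 0.82 ± 0.27 (adjusted p = 0.23 without the block). Pkm (-0.088 ± 0.09) and Aldoa (-0.090 ± 0.08) were not called. For amino acid carriers and arginine metabolism, 6 of 22 were higher and 3 lower (3 and 0 without the block and 9 and 0 as deposited). The increases included Slc7a2, Arg1, the mitochondrial arginase Arg2 (1.28 ± 0.37; adjusted p = 0.18 without the block) and Gatm (0.79 ± 0.14), which makes the creatine precursor from arginine. Azin1 (-0.43 ± 0.18) and Slc38a1 (0.0058 ± 0.08) were not called. Of 14 iron and heme genes, 2 were higher and 4 lower (0 and 0 without the block and 3 and 1 as deposited). The transferrin receptor Tfrc had 362, 167 and 186 CPM with IL-4, against 163, 64.2 and 66.2 CPM in untreated libraries (1.33 ± 0.12, adjusted p = 2.4e-07), and heme oxygenase Hmox1 had 206, 152 and 123.1 CPM after IL-4 and 417, 288 and 248 CPM in untreated cells (-0.98 ± 0.15, adjusted p = 8.6e-05). Without the block the adjusted p was 0.087 for Tfrc and 0.072 for Hmox1. The iron exporter Slc40a1 (-0.91 ± 0.27) and the siderophore-binding Lcn2 (-0.59 ± 0.13) fell with overlapping groups, and without the block their adjusted p was 0.11 for Slc40a1 and 0.75 for Lcn2.

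Adhesion genes had 7 members higher and 4 lower of 30 (4 and 1 without the block and 11 and 1 as deposited). Cd44, the hyaluronan receptor, had 823, 719.8 and 760.0 CPM in IL-4 2 h libraries, against 225, 254 and 214 CPM in untreated libraries (1.73 ± 0.17, adjusted p = 8.1e-07), and Itgb3, the β3 integrin, rose by 1.43 ± 0.17. Thbs1, thrombospondin, fell and is given with the largest decreases. Itgam (-0.023 ± 0.07) and Itgb1 (0.22 ± 0.11) were not called. Of 20 genes of the TGF-β, BMP and Notch pathways, 4 were higher and 6 lower (3 and 6 without the block and 8 and 5 as deposited). Tgif1, a corepressor of SMAD proteins, had 14.8, 11.1 and 14.6 CPM with IL-4, against 68.3, 45.5 and 51.4 CPM in untreated libraries (-1.94 ± 0.18, adjusted p = 3.4e-07). Smad3, the TGF-β signal carrier, had 5.83, 4.45 and 4.87 CPM after IL-4 and 27.98, 15.1 and 21.2 CPM in untreated cells (-1.86 ± 0.16, adjusted p = 1.4e-07), the Notch ligand Jag1 fell by 1.59 ± 0.27, and Dtx4, a ubiquitin ligase of the Notch pathway, by 1.30 ± 0.19. Tgfbr2 (0.043 ± 0.11) and Tgfbr1 (-0.51 ± 0.19) were not called.

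Cell cycle and apoptosis regulators had 6 members higher and 8 lower of 31 (4 and 2 without the block and 10 and 3 as deposited). Cdkn1a, the p21 inhibitor of cyclin-dependent kinases, had 309.9, 267 and 304 CPM in IL-4 2 h libraries, against 58.3, 72.3 and 61.03 CPM in untreated libraries (2.18 ± 0.24, adjusted p = 2.8e-06). The survival gene Bcl2 had 14.9, 30.6 and 14.95 CPM with IL-4, against 3.87, 9.67 and 4.32 CPM in untreated libraries (1.62 ± 0.11, adjusted p = 1.3e-08), the kinase Pim3 rose by 1.95 ± 0.15, and Pmaip1, the proapoptotic protein NOXA, fell by 1.77 ± 0.19. Proliferation genes differed more between replicate numbers than between the groups. Top2a had 9.03, 328 and 40.9 CPM after IL-4 and 11.7, 298 and 101 CPM in untreated cells and was not called (-0.49 ± 0.26), nor was Mki67 (0.48 ± 0.45). Heat shock and unfolded-protein genes had 3 higher and 1 lower of 20 (2 and 0 without the block and 9 and 0 as deposited). The pseudokinase Trib1 (1.93 ± 0.35; adjusted p = 0.050 without the block), the chaperone Hsph1 (0.76 ± 0.11) and the stress factor Xbp1 (0.75 ± 0.10) were higher and Herpud1 (-0.81 ± 0.16; 0.22 likewise) lower, while the abundant chaperones Hspa8 (-0.076 ± 0.09) and Hspa5 (0.18 ± 0.12) were not called. Chromatin regulators had 4 higher and 4 lower of 24 (1 and 1 without the block and 6 and 0 as deposited). These counts, like those of the heat shock genes, stand beside 14% higher and 11.5% lower over all genes. Ezh2, the H3K27 methyltransferase, rose by 1.01 ± 0.15 (adjusted p = 0.45 without the block), the DNA methyltransferase Dnmt3a fell by 0.77 ± 0.14 (adjusted p = 0.14 in the deposited values), and Ncor1 (-0.10 ± 0.09) and Dnmt1 (-0.20 ± 0.11) were not called.

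**Figure D3:**
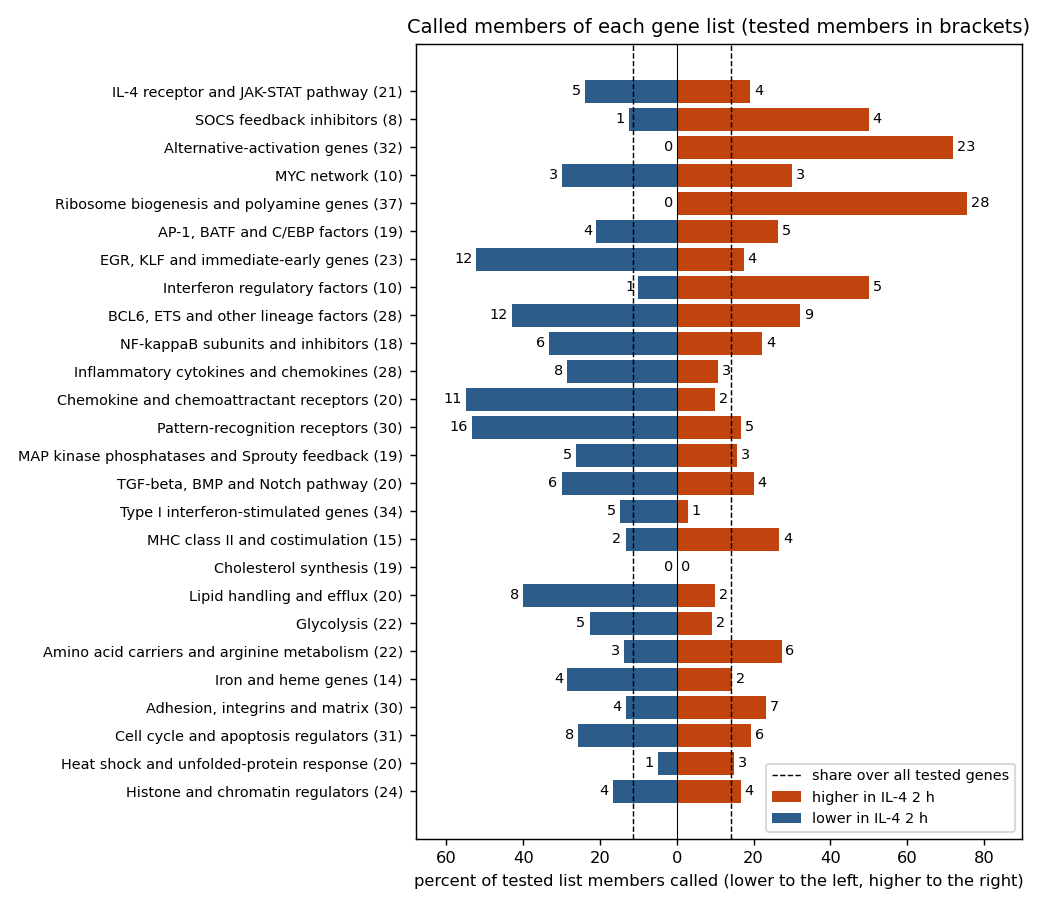
Percent of the tested members of each gene list that were called higher (red, to the right) or lower (blue, to the left) after 2 h of IL-4, with the count beside each bar, the number tested in brackets and dashed lines at the shares over all genes (14% and 11.5%). Alternative activation (23 of 32) and ribosome biogenesis (28 of 37) reach farthest to the right, and chemoattractant receptors (11 of 20), pattern-recognition receptors (16 of 30, a balance that turns in the deposited values) and the EGR, KLF and immediate-early genes (12 of 23, or 8 as deposited) farthest to the left.

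Leaving out replicates moved several of these counts by over 1.5 times, among them the ones given next. Without replicate number 3 the members called lower numbered 8 among pattern-recognition receptors, 7 among EGR, KLF and immediate-early genes, 6 among lineage factors, 5 in lipid handling and 4 among cell cycle and apoptosis regulators. In the receptor and JAK-STAT list there were then 0, and 1 each in glycolysis, amino acid, adhesion and chromatin genes. Without replicate number 1 there were 8 lower among pattern-recognition receptors, 7 among chemoattractant receptors, 5 in lipid handling, and 1 each in glycolysis and the receptor and JAK-STAT list. Among pattern-recognition receptors 9 were lower without IL-4 library 1. Without replicate number 2 the adhesion genes had 7 lower. Of the higher counts, that of amino acid genes was 3, that of pattern-recognition receptors 3 and that of TGF-β, BMP and Notch genes 2 without replicate number 3. In alternative activation the higher members numbered 20 to 25 over all settings that leave out a library or a number, and in ribosome biogenesis 19 to 27.

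Among the most abundant genes with a log2 change of at least 1, besides Mrc1 and Lars2, 3 are protein-coding. Dab2, an endocytic adaptor, had 2005, 2060.5 and 1904 CPM in IL-4 2 h libraries, against 593, 791 and 611 CPM in untreated libraries (1.59 ± 0.12, adjusted p = 4.1e-08). Ehd4, a membrane-remodelling ATPase of endosomes, had 1325, 851 and 1149.5 CPM with IL-4, against 579, 411 and 442 CPM in untreated libraries (1.21 ± 0.15, adjusted p = 1.1e-05). Atp6v1b2, a subunit of the proton pump of lysosomes, had 1267, 754 and 880.3 CPM after IL-4 and 517, 386 and 395 CPM in untreated cells (1.14 ± 0.10, adjusted p = 2.8e-07). The lowest IL-4 library was above the highest untreated library in each. Of the 15 largest increases, those not yet described are Rab15, a small GTPase of endosomes (3.44 ± 0.23), Hbegf, a growth factor of the EGF family (3.40 ± 0.24), and B3gnt7, a glycosyltransferase of keratan sulfate (3.17 ± 0.18). Rab15 had 13.4, 27.01 and 12.7 CPM in IL-4 2 h libraries, against 0.0812, 1.67 and 0.508 CPM in untreated libraries.

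The 15 largest decreases by rule divide into RNAs set by a pair of untreated libraries and genes that fell in all 3 pairs alike. Rn45s (-5.32 ± 1.59), Mir6240 (-4.83 ± 1.25), Rmrp (-4.57 ± 1.29), Rpph1 (-4.12 ± 1.29) and Lars2 (-3.81 ± 1.12) overlapped between the groups. Rmrp, the RNA of the ribonuclease MRP complex, had 0.296, 1.07 and 0.541 CPM with IL-4, against 0.649, 382 and 85.8 CPM in untreated libraries. Its log2 change was -0.35 in pair 1, -7.53 in pair 2 and -5.82 in pair 3. With untreated library 1 as the lone control, the adjusted p was 0.88 or more for each of these genes. Mir6236 (-3.33 ± 1.00), among the abundant genes of this size, overlapped likewise. Over all genes, 179 were lower by log2 1 or more with that lone control, against 154 with all 3.

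The other 10 were apart in all libraries. Kcnj2, an inward-rectifier potassium channel, had 4.78, 5.26 and 7.08 CPM after IL-4 and 75.5, 55.2 and 56.4 CPM in untreated cells (-3.24 ± 0.26, adjusted p = 5.1e-08; chromosome 11, 111066164 to 111076821, plus strand). Lpar6, a lysophosphatidic acid receptor, had 10.8, 6.80 and 21.2 CPM in IL-4 2 h libraries, against 83.1, 70.5 and 107 CPM in untreated libraries (-2.77 ± 0.21). Arrdc3, an α-arrestin, had 4.46, 4.22 and 6.54 CPM with IL-4, against 36.2, 32.9 and 50.7 CPM in untreated libraries (-2.75 ± 0.13, adjusted p = 1.3e-10). The highest IL-4 library was far below the lowest untreated one in all 3. Thbs1 had 57.9, 49.98 and 39.2 CPM after IL-4 and 353, 193 and 247 CPM in untreated cells (-2.38 ± 0.16). Lhfpl2, a membrane protein, had 75.4, 76.3 and 65.3 CPM in IL-4 2 h libraries, against 379, 319 and 309 CPM in untreated libraries (-2.20 ± 0.25). Thbd, thrombomodulin, had 2.55, 2.45 and 3.36 CPM with IL-4, against 18.6, 12.5 and 16.5 CPM in untreated libraries (-2.15 ± 0.19). Again every untreated library was above every IL-4 library. Fgd3, an exchange factor of the GTPase Cdc42, fell by 2.20 ± 0.16, and Nol4l by 2.16 ± 0.13. Nfkbiz and Tnf complete the set.

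The libraries carried the markers of the labelled cell type. All 14 macrophage markers passed the filter, and 12 of them were not called, while 1 was higher and 1, the high-affinity Fc receptor Fcgr1, lower (-0.55 ± 0.18; adjusted p = 0.11 without the block). Lyz2, lysozyme, had 18029, 10617 and 22657 CPM after IL-4 and 27054, 13962 and 19578 CPM in untreated cells (-0.26 ± 0.15, adjusted p = 0.25). Summed over the list, macrophage markers gave 40138, 26912 and 44592 CPM in IL-4 2 h libraries, against 51296, 30540.0 and 41377 CPM in untreated libraries. Markers of other cells were low. The 8 neutrophil markers summed to 181, 150.1 and 81.4 CPM with IL-4 and 236, 193 and 103 CPM without, with S100a9 (-0.57 ± 0.12) and Camp (-0.43 ± 0.11) called lower in overlapping groups (adjusted p = 0.81 for S100a9 and 0.73 for Camp without the block). The 10 T and NK cell markers summed to 23.3, 4.37 and 20.2 CPM with IL-4 and 27.2, 5.85 and 18.4 CPM without, nearly all of it Cd4. Of the 7 B cell markers, Pax5 had no read in any of the 6 libraries, and Blnk (-0.39 ± 0.10, positive in the deposited values) and Cd79b (0.050 ± 0.16) made up nearly all of the sum. The mast cell genes Mcpt4, Tpsb2, Tpsab1 and Fcer1a, the endothelial Cldn5 and the globins Hba-a1, Hbb-b1 and Hbb-bs had no read either. Other members of these lists did have reads. Kit, of the 10 mast cell and basophil markers, had 1.25, 7.80 and 1.20 CPM with IL-4 and 1.68, 9.49 and 3.60 CPM without. The 10 erythroid or megakaryocyte markers summed to 41.03, 79.4 and 42.3 CPM with IL-4 and 47.6, 75.1 and 45.2 CPM without, nearly all of it Pf4. Pecam1, an endothelial marker that myeloid cells also carry, had 4.46, 2.92 and 4.98 CPM in IL-4 2 h libraries, against 0.676, 0.657 and 0.468 CPM in untreated libraries (1.66 ± 0.20), while Kdr fell by 1.06 ± 0.16 (adjusted p = 0.28 without the block). Only 3 of 8 dendritic cell markers, 5 of 9 fibroblast markers and 2 of 10 erythroid or megakaryocyte markers were tested, and these had no called member by limma, edgeR or DESeq2 and none at an unadjusted limma p under 0.05, although 1 fibroblast marker was called higher as deposited. The part of these markers in the other results was not tested.

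The 4 h libraries were a separate group of 3. The genes set against them here were picked on the 2 h libraries that the difference also uses, so the counts and values describe those genes and nothing is read from them against the shares over all genes. Over all genes, 9.1% were higher and 10.7% lower at 4 h than at 2 h. Of the 15 largest increases, 6 were higher still at 4 h, 1 was lower and 8 were not called. Socs1 averaged 0.881 ± 0.397 CPM in untreated cells, 86.4 ± 29.3 CPM at 2 h and 54.8 ± 12.2 CPM at 4 h, and it was the one that was lower (4 h minus 2 h -0.62 ± 0.19, adjusted p = 0.029). Cish averaged 67.2 ± 7.49 CPM at 4 h (0.20 ± 0.20, adjusted p = 0.54) and Myc 35.1 ± 7.33 CPM (-0.25 ± 0.13, adjusted p = 0.18), neither called. Tmem26 averaged 0.197 ± 0.134 CPM in untreated cells, 18.2 ± 6.14 CPM at 2 h and 91.4 ± 11.2 CPM at 4 h (2.31 ± 0.13, adjusted p = 5.2e-09). Pdcd1lg2 averaged 80.7 ± 13.8 CPM at 4 h (1.65 ± 0.21), Rab15 54.2 ± 49.7 CPM (1.27 ± 0.23) and Slc7a2 83.3 ± 22.8 CPM (0.97 ± 0.14).

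The effectors Retnla, Arg1, Ccl24, Chil3 and Mrc1 were all higher at 4 h than at 2 h. Retnla had 1.59, 1.43 and 1.46 CPM at 2 h and 48.6, 41.7 and 41.2 CPM at 4 h (4.17 ± 0.09, adjusted p = 9.8e-15). Every 4 h library was far above every 2 h library. Arg1 had 6.92, 17.1 and 5.17 CPM at 2 h and 25.8, 146 and 20.9 CPM at 4 h (2.20 ± 0.40, adjusted p = 9.2e-04). Ccl24 was higher by 1.60 ± 0.19, Chil3 by 0.65 ± 0.16 (adjusted p = 0.0071) and Mrc1 by 0.51 ± 0.12. Pparg was lower at 4 h than at 2 h (-0.72 ± 0.08, adjusted p = 6.1e-06), with means of 40.05 ± 8.95 CPM in untreated cells, 66.2 ± 11.1 CPM at 2 h and 40.2 ± 8.60 CPM at 4 h. Il13ra1 was also lower (-0.66 ± 0.12, adjusted p = 9.8e-04). Of the 10 large decreases whose groups did not overlap, 9 were not called between the times, and Thbs1 was lower at 4 h (-0.76 ± 0.16).

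**Figure D4:**
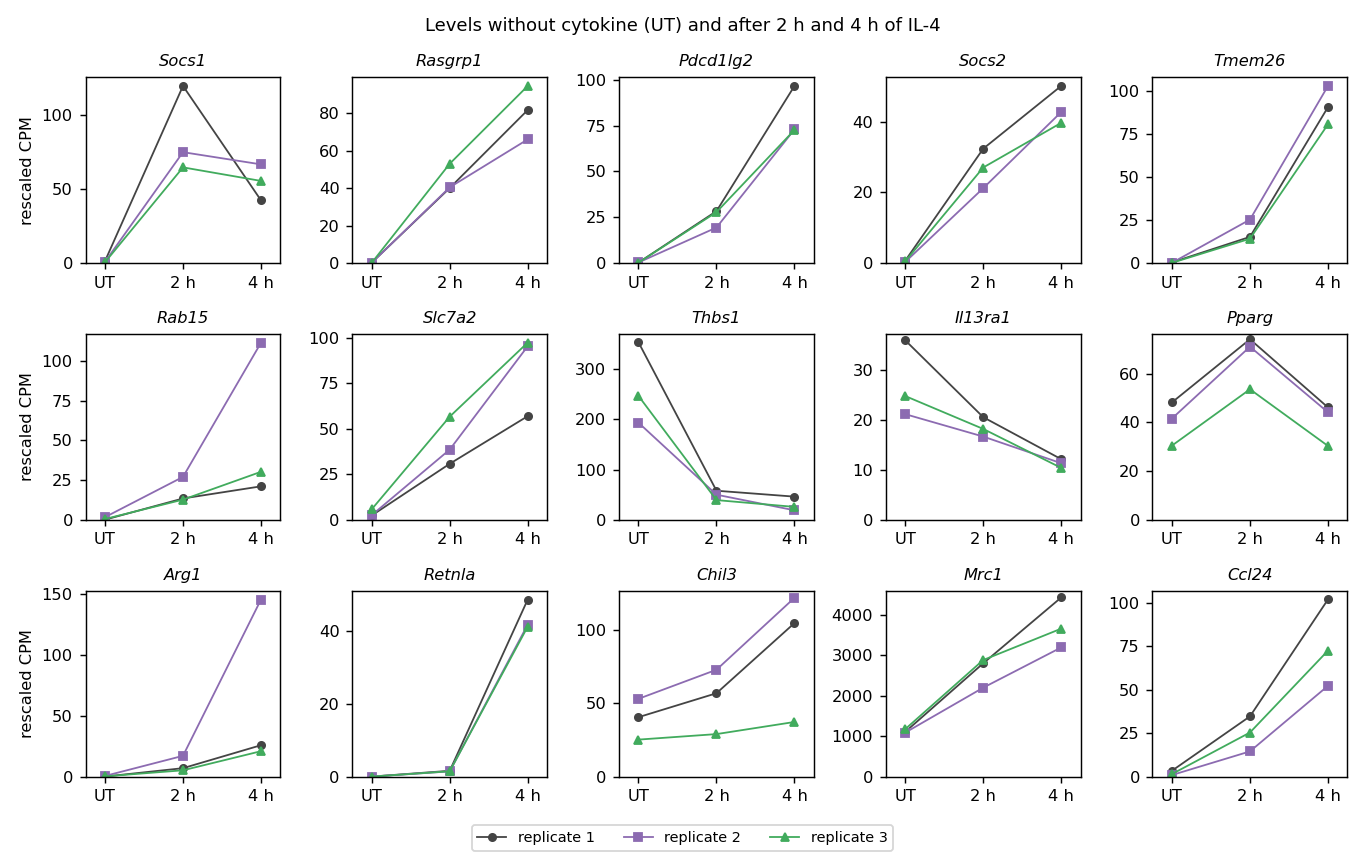
Rescaled CPM (linear axis from 0) in untreated cells (UT) and after 2 h and 4 h of IL-4 for the 15 genes, of 46 named genes compared between the times, that were called between 4 h and 2 h, with 1 line and marker per replicate number. Socs1 and Pparg are highest at 2 h in replicates 1 to 3, Thbs1 and Il13ra1 fall at both times, and Retnla is close to 0 until 4 h.

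The interferon IFN-γ is known for classical activation. Both sets of genes set against it here were picked on their difference between these same IL-4 libraries and the untreated ones, so the counts are a description and nothing is read from them against the shares over all genes. Over all genes, 19.4% were higher after 2 h of IL-4 than after 2 h of IFN-γ and 19.7% lower. Of the 15 largest increases, 14 were higher with IL-4 and 1, Socs1, was not called: it had 119.7, 74.9 and 64.6 CPM with IL-4 and 107, 92.2 and 86.5 CPM with IFN-γ (-0.18 ± 0.19, adjusted p = 0.50). Its groups overlapped, and this p does not show that the levels are equal. Cish had 65.9, 47.3 and 62.96 CPM with IL-4 and 42.3, 19.4 and 33.9 CPM with IFN-γ (0.91 ± 0.20, adjusted p = 0.0015), all far above its untreated libraries. Ccl7 was higher with IL-4 by 1.17 ± 0.25. Many of the 15 were also called higher after 2 h of IFN-γ against untreated cells. The log2 changes were 5.69 for Socs1, 4.20 for Cish, 3.79 for Ccl7, 2.09 for Nfil3, 2.01 for Egr2, 1.78 for Hbegf and Rasgrp1, 0.84 for Socs2 and 0.56 for Pdcd1lg2. Dusp4 (-1.06) and Myc (-0.52) were lower with IFN-γ than in untreated cells. Tmem26 (-0.028), Rab15 (0.31), Slc7a2 (0.24) and B3gnt7 (0.42) were not called. Among the 15, the largest differences were in Dusp4, with 104, 102 and 64.5 CPM with IL-4 and 4.29, 3.18 and 2.45 CPM with IFN-γ (4.40 ± 0.13), Tmem26 (3.99 ± 0.13), Myc (3.85 ± 0.13) and Pdcd1lg2 (3.82 ± 0.21). Irf4 had 47.1, 49.4 and 54.7 CPM with IL-4 and 3.50, 2.05 and 2.94 CPM with IFN-γ (3.76 ± 0.17, adjusted p = 2.6e-11).

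Of the 10 large decreases whose groups did not overlap, 7 were lower with IL-4 than with IFN-γ. Tnf had 1.66, 1.34 and 1.53 CPM with IL-4 and 111, 26.7 and 61.4 CPM with IFN-γ (-4.53 ± 0.31, adjusted p = 2.6e-09), the widest gap among them, with 14.6, 8.48 and 7.95 CPM in untreated libraries. Kcnj2 (-4.21 ± 0.26) and Nfkbiz (-3.08 ± 0.26) followed. Lhfpl2 (0.33 ± 0.25, adjusted p = 0.34) and Nol4l (0.18 ± 0.13, adjusted p = 0.32) were not called, and Fgd3 was higher with IL-4 (1.07 ± 0.16). Most of these decreases were also called after 2 h of IFN-γ against untreated cells. The log2 changes were -3.27 for Fgd3, -2.52 for Lhfpl2, -2.35 for Nol4l, -1.73 for Lpar6, -1.59 for Thbs1, -1.46 for Arrdc3 and -1.40 for Thbd. Kcnj2 (0.97) and Tnf (2.40) were higher with IFN-γ than in untreated cells, and Nfkbiz (0.23) was not called. The same untreated libraries serve both cytokines. Il13ra1 was lower with IL-4 than with IFN-γ (-1.81 ± 0.12), as were Il4ra (-0.86 ± 0.18), Bcl6 (-1.23 ± 0.16) and Kdm6b (-0.89 ± 0.28), and Pparg was higher (1.44 ± 0.08). Il4ra had 905, 800.1 and 999.6 CPM with IL-4, 1880.4, 1142 and 2030.0 CPM with IFN-γ and 228, 188 and 231 CPM in untreated libraries.

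**Figure D5:**
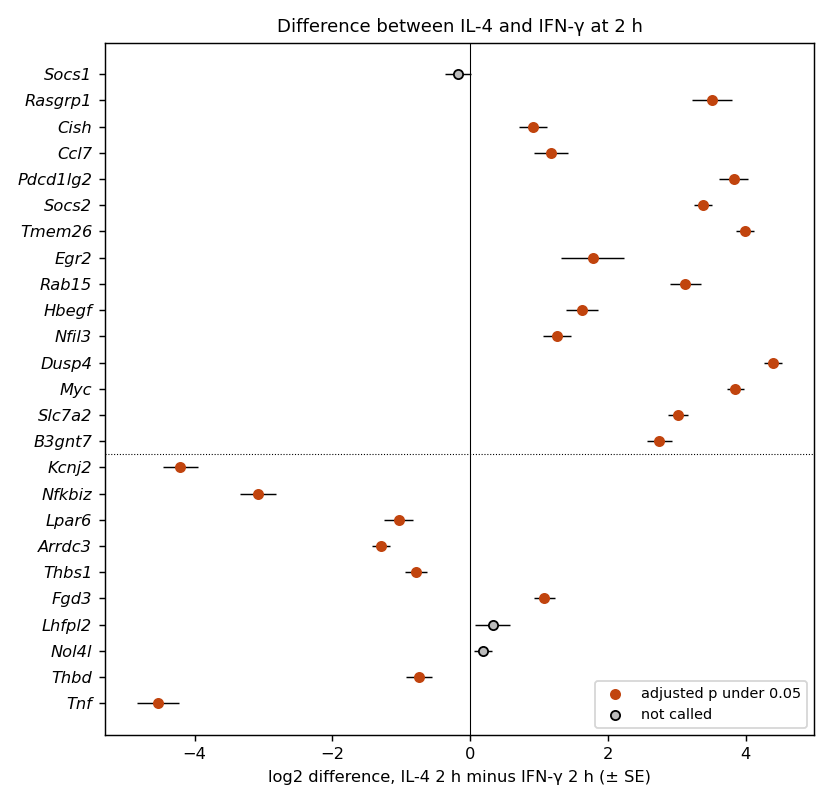
Log2 difference between 2 h of IL-4 and 2 h of IFN-γ, with its standard error, for the 15 largest increases (above the dotted line) and the 10 non-overlapping largest decreases (below it); red points were called and grey points not. All increases but Socs1 lie right of 0, and Tnf at -4.53 and Kcnj2 at -4.21 lie farthest to the left.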

How the data were processed

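The authors' deposited table gives CPM per gene, reads of a gene scaled to a common library total, on mm10 (GRCm38). Per the submitters' processing notes, TopHat2 2.1.0, HTSeq and edgeR were used; strand settings are not given in the sources used here. Each CPM value was a whole multiple of 1 read within 0.01 for 100% of values, which gave the read totals. Libraries were rescaled by median ratios over 13025 genes with reads in every library, and genes reaching 1 CPM in fewer than 3 of 21 libraries were left out. limma 3.58.1 (R 4.3.3) was fitted to log2(CPM + 1) of the 21 libraries, with 7 group means, a block for the replicate number, a trended empirical Bayes variance and 12 residual degrees of freedom; p-values were adjusted by Benjamini-Hochberg over 11380 genes in each contrast. The script was tested on simulated data. edgeR 4.0.16 and DESeq2 1.42.0 on the recovered reads were alternatives.

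The replicate numbers come from the labels. Deviations from the group means correlated by 0.8811, 0.9013 and 0.7051 between same-numbered IL-4 2 h and untreated libraries, and by -0.8032 to 0.1979 between others, so the numbers were taken to pair the samples.

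Named genes are the 15 largest called changes in each direction with 1 sign in all pairs and a mean of at least 5 CPM in the higher group, pathway genes of IL-4, up to 4 called members with the largest changes and the 2 most abundant uncalled members of each gene list, the 8 most abundant genes changed by log2 1 or more, and genes with no read in 1 group. Genes, lists and tests were chosen with earlier results of these data known. The table held no mitochondrially encoded gene, so that list gave no value. Gene positions come from GENCODE on GRCm38. The 24 other samples of the series were not analysed here. Some genes of the lists are counted but not reported here by name.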

Additional observations from a re-analysis of the deposited data

Results flagged for a closer look

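Of 46 named genes compared, 11 were higher and 4 lower at 4 h than at 2 h of IL-4, and 31 were not called; over all genes 9.1% were higher and 10.7% lower. For those 15 genes the change from untreated cells differed between 4 h and 2 h of IL-4, by limma's test of the difference between the times (Benjamini-Hochberg adjusted p from 9.8e-15 for Retnla to 0.048 for Rasgrp1; 3 libraries each). As log2 differences, 4 h minus 2 h, Retnla was higher by 4.17, Tmem26 by 2.31, Arg1 by 2.20, Pdcd1lg2 by 1.65, Ccl24 by 1.60, Rab15 by 1.27, Slc7a2 by 0.97, Rasgrp1 by 0.84, Socs2 by 0.71, Chil3 by 0.65 and Mrc1 by 0.51. The difference was -0.76 for Thbs1, -0.72 for Pparg, -0.66 for Il13ra1 and -0.62 for Socs1. These genes were chosen on the 2 h libraries that the difference also uses, so the counts are a description.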

How the results depend on the processing

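The counts of genes moved by over 1.5 times under the settings given next. In the CPM as deposited, 4124 genes were higher and 214 lower (573 and 57 by log2 1 or more), so that 95.1% of the calls were higher, against 54.8% after rescaling, and the median of all genes was 0.39. Without the replicate block 627 were higher and 354 lower, with the same log2 changes. With untreated library 1 as the lone control, chosen after seeing the data and assuming that it varies like the other groups, 930 were higher and 715 lower. Leaving out replicates gave 739 to 1523 higher and 491 to 1335 lower, and by log2 1 or more 272 to 302 higher and 139 to 174 lower. The low ends came without replicate number 3 (739 and 491) and number 1 (1031 and 777). Genes lower by log2 1 or more numbered 245 by edgeR and 253 by DESeq2, against 154 by limma, and the cause was not tested. The counts of higher and lower genes stayed within 1.5 times under TMM factors (1629 and 1253), without Rn45s and Lars2 (1492 and 1258), in the 6 libraries alone (1881 and 1645), by edgeR (1488 and 1451) and DESeq2 (1507 and 1591), at other pseudocounts, at a minimum of 5 CPM (1505 and 1142) and with no minimum (1519 and 1451). Of 198 named genes, TMM factors changed no call. Leaving out replicate number 1 ended 18 calls, number 2 ended 7 and made 4, and number 3 ended 24. Such losses are not given beside every gene above. With the sign kept, the deposited scaling ended 16 calls and made 19, the fit without the block ended 40, and the lone control ended 25. The deposited scaling and the lone control each turned the sign of 2 more called genes. These were Rpph1 (0.20) and Mir6236 (0.15) with the lone control, and Stat6 (0.17) and Blnk (0.034) as deposited. Less the median of all genes, the deposited change was -0.22 for Stat6 and -0.35 for Blnk. The cause of the turned signs was not tested. Genes with a few reads per library, such as Rasgrp1 in untreated cells, limit the precision of the largest changes.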
